A study of Canis lupus familiaris with 2 samples.

Results

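The miRNAs described here are cfa-miR-193b, cfa-miR-365, cfa-miR-22 and cfa-miR-505, dog miRNAs measured in a monolayer and in spheroids of SNP cells, a canine mammary gland tumour culture. They were taken as the rows with these names, in any arm, on an array of 291 dog miRNA probes, and are written below without the species prefix. Each name matched 1 probe, so the set comprised 4 of the 291. All 4 were among the 178 miRNAs detected on both arrays. They were chosen by their lower intensity in the spheroid array together with their known roles, so the differences between the cultures are given as a description, with no test.

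The study compared SNP cells grown adherent as a monolayer (2D-SNP) with SNP spheroids (3D-SNP), to ask how miRNA levels differ between the culture forms. Both forms were SNP cells, for which the labels give no further treatment. The spheroids were started by selecting floating cells of the growth medium and were grown with no added matrix, so that the selection of cells and the culture form cannot be told apart. Each form gave 1 total RNA sample (RNA integrity 9.8 and 9.7 for monolayer and spheroids), which was labelled with Cy5 and read on 1 array of 1 colour. In such bulk RNA, fewer cells carrying a miRNA and less of it per cell cannot be told apart.

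A miRNA guides a silencing complex to messenger RNAs that pair with its seed, a short stretch near its 5′ end, and lowers their translation and stability. miR-193b and miR-365 are made from neighbouring hairpins that are transcribed together in human and mouse, where the pair is also known from brown fat. In human breast cancer cells, miR-193b represses the mRNAs of urokinase and of the oestrogen receptor, and miR-22 represses the oestrogen receptor mRNA as well. miR-365 is known from human tumour cells as a repressor of cyclin D1, a driver of cell cycle entry. miR-505 has been described as restraining growth in human carcinoma cells. In the RefSeq dog table, MIR193B and MIR365-1 lay within 10 kb of each other. A second gene, MIR365-2, had MIR193A, the gene of the family relative of miR-193b, as its nearest miRNA gene, although farther than 10 kb away. MIR22 and MIR505 had no other miRNA gene within 10 kb. The single miR-365 probe cannot say which of the 2 MIR365 genes its signal came from.

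The precision is limited by the number of arrays: no difference had a replicate check. A miRNA counted as detected above the blank spots' mean plus 2 SD, which was 89.8 intensity units for the monolayer and 79.8 for the spheroids and left 180 and 201 miRNAs. The error used for the main values was that between repeated spots of 6 control probes, whose log2 difference between arrays had a pooled SD of 0.065. This SD covers the printing and reading of spots but no variation between cultures, extractions or arrays. The controls had mean raw intensities from 98.3 to 10597.5 in the monolayer array, and most were brighter than the 4 miRNAs. Of the markers of other cell types, 2 of 4 for fibroblasts or smooth muscle were detected on both arrays (summed deposited values 73.3 and 51.1), as were 1 of 4 for blood (5.46 and 4.05) and 3 of 6 for striated muscle (20.8 and 9.55). The endothelial miR-126 and the neuronal miR-124 were detected on neither array, and the liver miRNA miR-122 only in the spheroids, at 1.82. All 6 epithelial markers were detected on both, with summed values of 900.4 and 1359, of which miR-205 was lower (170.0 and 27.6) and the other 5 higher. The part of these shifts in the results was not tested.

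All 4 miRNAs were lower in the spheroid array, from 1.24-fold for miR-193b to 1.93-fold for miR-22 in the normalized values, as were 54.5% of the 178 by any amount, although miR-193b was 0.08 above 0 on the log2 scale when the same background-corrected values were scaled to the spike controls. miR-365 was the brightest of the 4 probes. Its spot read 303 raw intensity units for the monolayer and 207 for the spheroids, or 218 and 131 above the blank mean. The blank-subtracted and scaled values that the authors deposited were 133 and 65.0, a 2.05-fold lower value in the spheroids. In the normalized values used throughout as the main measure (normexp background correction, log2, quantile normalization), miR-365 had log2 levels of 8.32 and 7.41. The log2 difference, spheroid minus monolayer, was -0.91, or 13.9 times the SD between repeated spots in size. Only 7 of the 178 miRNAs lay lower in the order of differences.

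Its cluster partner miR-193b was dimmer and differed less. The raw intensities were 142 and 119, the deposited values 34.6 and 21.1, and the normalized log2 levels 6.86 and 6.56. The log2 difference was -0.31 in the main values, 4.68 times the spot SD, and -0.71 in the deposited ones, where the estimated spot error was 0.34. miR-193b ranked 39th from the lowest difference among the 178. The cluster members differed by unequal amounts in the main values: miR-193b lay 0.60 above miR-365 on the log2 scale, against a spot error of 0.09 for such a gap. In the deposited values, in which dim spots are not drawn together, the gap was 0.32 against a spot error of 0.39, so the 2 partners were not told apart there.

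miR-193a, the family relative with a probe of its own, was dim, with raw intensities of 108 and 93.5. These lay 9.70 and 10.8 blank SDs above the blank mean. Its deposited values were 14.0 and 8.34, and its log2 difference was -0.26 in the main values and -0.75 in the deposited ones, with a deposited spot error of 0.66; it was at 0.14 with the normexp values scaled to the spike controls. That difference lay 0.05 from that of miR-193b in the main values, less than the spot error. Whether the probes of miR-193a and miR-193b read a shared signal was not tested.

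miR-22 had the largest difference of the 4 in the main values. The probe read 220 and 136 raw intensity units in monolayer and spheroids, 38.2% lower in the latter before any correction or scaling. Its normalized log2 levels were 7.75 and 6.81, a log2 difference of -0.95 and the 7th lowest of the 178. The deposited values were 82.3 and 29.4, a 2.80-fold lower value in the spheroids, with a log2 difference of -1.48 and an estimated spot error of 0.25.

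miR-505 lay between miR-22 and miR-193b. It read 174 and 123 raw intensity units, and its normalized log2 levels were 7.28 and 6.59. The main log2 difference was -0.69, the 11th lowest, and the deposited values were 54.3 and 22.9, a 2.37-fold lower value. The spots of miR-505 and miR-193b lay in the same block of the array, where the blank spots averaged 82.04 and 75.8 on the 2 arrays, against 85.1 and 76.7 over all blocks. With the blank mean of its own block subtracted, miR-505 was at -1.37 and miR-193b at -0.82, against -1.31 and -0.67 with the mean of all blanks.

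**Figure D1:**
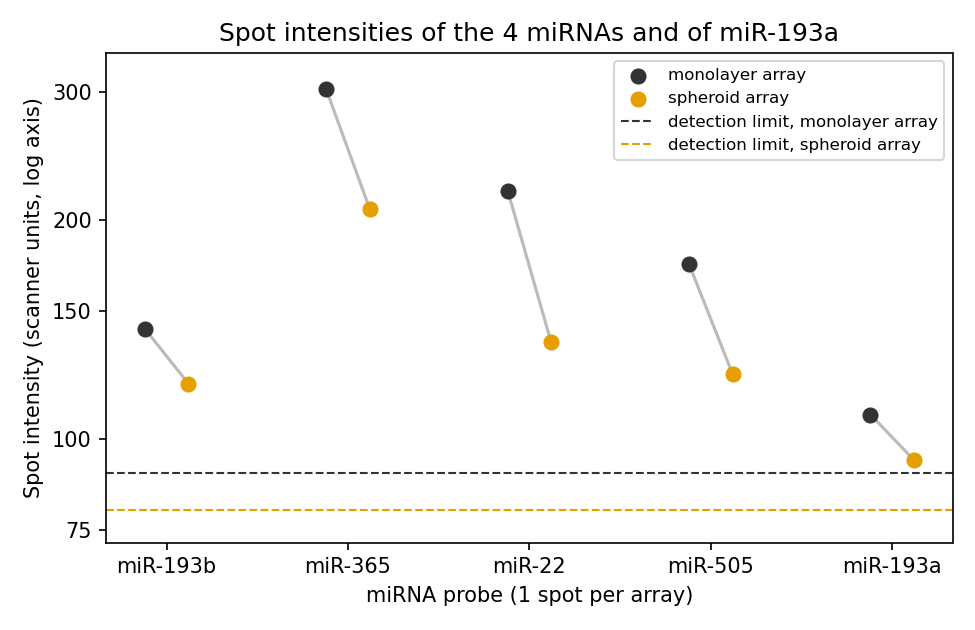
Raw spot intensity in scanner units (log axis) of miR-193b, miR-365, miR-22, miR-505 and miR-193a, with 1 point per array and the detection limit of each array as a dashed line. All 5 probes read lower on the spheroid array, from 303 to 207 for miR-365 and from 108 to 93.5 for miR-193a, and all points lie above the limit of their own array.

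In the order of main differences, miR-22 and miR-365 were 0.04 apart, less than the spot error of 0.09. miR-505 lay 0.22 above miR-365 and 0.38 below miR-193b, both more than 2 times that error. The error was taken before scaling, so it leaves out any error of the quantile normalization. With median scaling of the same background-corrected values, miR-22 was at -0.85, miR-365 at -0.66, miR-505 at -0.63 and miR-193b at -0.33. The gap between miR-505 and miR-365 thus depended on the scaling. The deposited values gave another order, with miR-505 (-1.24) below miR-365 (-1.03). In that order the gaps between neighbours were 0.24, 0.21 and 0.32. Each was under its own estimated spot error of 0.35 to 0.39, which was taken without pairing spots between the arrays. miR-193b had the smallest difference of the 4 in the main and in the deposited values.

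None of the 4 reached the 2-fold mark in the main values, where 2.81% of the 178 miRNAs were 2-fold or more lower and 2.25% 2-fold or more higher. miR-22 and miR-365 were 1.93-fold and 1.87-fold lower, miR-505 1.61-fold and miR-193b 1.24-fold. By more than 2 spot SDs, all 4 were lower, as were 36.0% of the 178. In the deposited values 3 of the 4 were 2-fold or more lower, against 14.0% of all. The same 3 were so with either blank mean subtracted, against 19.1% of all, miR-22 and miR-365 with a normexp offset of 16, against 4.49%, and miR-22 alone with 75th percentile scaling, against 3.37%. None of the 4 were so without background correction, with median scaling, without scaling or with either spike control scaling. In those settings 1 to 6 of the 178 were. These counts follow from the choice of the members and are printed with their background for scale.

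**Figure D2:**
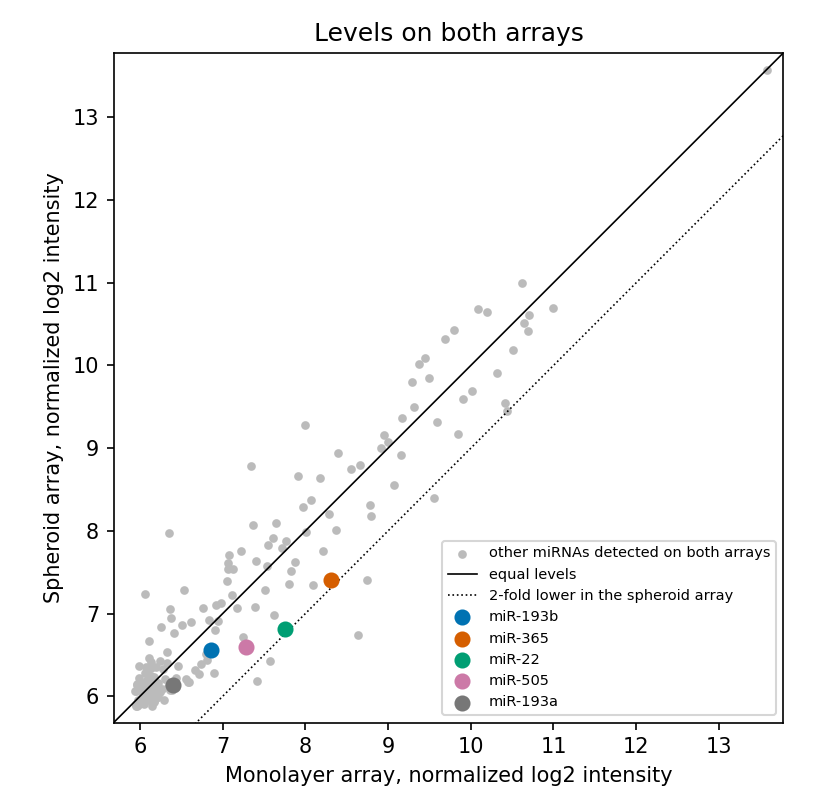
Normalized log2 intensity in the monolayer (x axis) and in the spheroids (y axis) of the 178 miRNAs detected on both arrays, with miR-193b, miR-365, miR-22, miR-505 and miR-193a in colour. The coloured points lie below the line of equal levels, and miR-22 (7.75 and 6.81) and miR-365 (8.32 and 7.41) lie just above the dotted line of a 2-fold lower level.

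The direction was also present in the raw intensities. Of the 178 miRNAs, 32.6% read lower on the spheroid array by more than 10% before correction, and all 4 were among them, by 15.9% for miR-193b, 29.4% for miR-505, 31.6% for miR-365 and 38.2% for miR-22. The repeated control spots, however, also read lower on that array. Over the 6 control probes, the background-corrected log2 difference before scaling ran from -0.35 to -0.14. On the same unscaled values miR-193b was at -0.23, within the range of the controls, whereas miR-505 (-0.54), miR-365 (-0.57) and miR-22 (-0.75) lay below it. A control probe close to miR-365 in brightness, with mean raw intensities of 294 and 257, differed by -0.18 with an SD of 0.063 over 8 spots. When these normexp values were scaled to the spike controls, a setting chosen after seeing the data, miR-193b was at 0.08, miR-505 at -0.22, miR-365 at -0.26 and miR-22 at -0.44. The spike scaling on values with the blank mean subtracted, which changes the background treatment as well, gave -0.10 for miR-193b, -0.63 for miR-505, -0.42 for miR-365 and -0.87 for miR-22.

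miR-22, miR-365 and miR-505 were below 0 under each of the 11 background treatments and scalings, which held for 10.7% of the 178. miR-193b was below 0 in 10 of the 11, the exception being the normexp values scaled to the spike controls. Because the scalings shift the whole set, differences were also taken relative to the median of the 178, which was -0.05 in the main values and between -0.28 and 0.61 elsewhere. Relative to that median, miR-22 lay between -1.49 and -0.78 and miR-365 between -1.04 and -0.66. miR-505 lay between -1.25 and -0.54 and miR-193b between -0.72 and -0.21. The rank of miR-22 from the lowest difference lay between 5 and 10, and that of miR-505 between 8 and 15. That of miR-365 lay between 7 and 25, and that of miR-193b between 26 and 52. Median, percentile, no and spike control scaling of the normexp values differ only by a shift of the whole set. They gave the same relative values and ranks, so they are not separate checks. The deposited values and the blank-subtracted values with spike scaling likewise shared their ranks. The members were chosen by their lower intensity in the spheroid array, so low ranks follow in part from the choice.

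**Figure D3:**
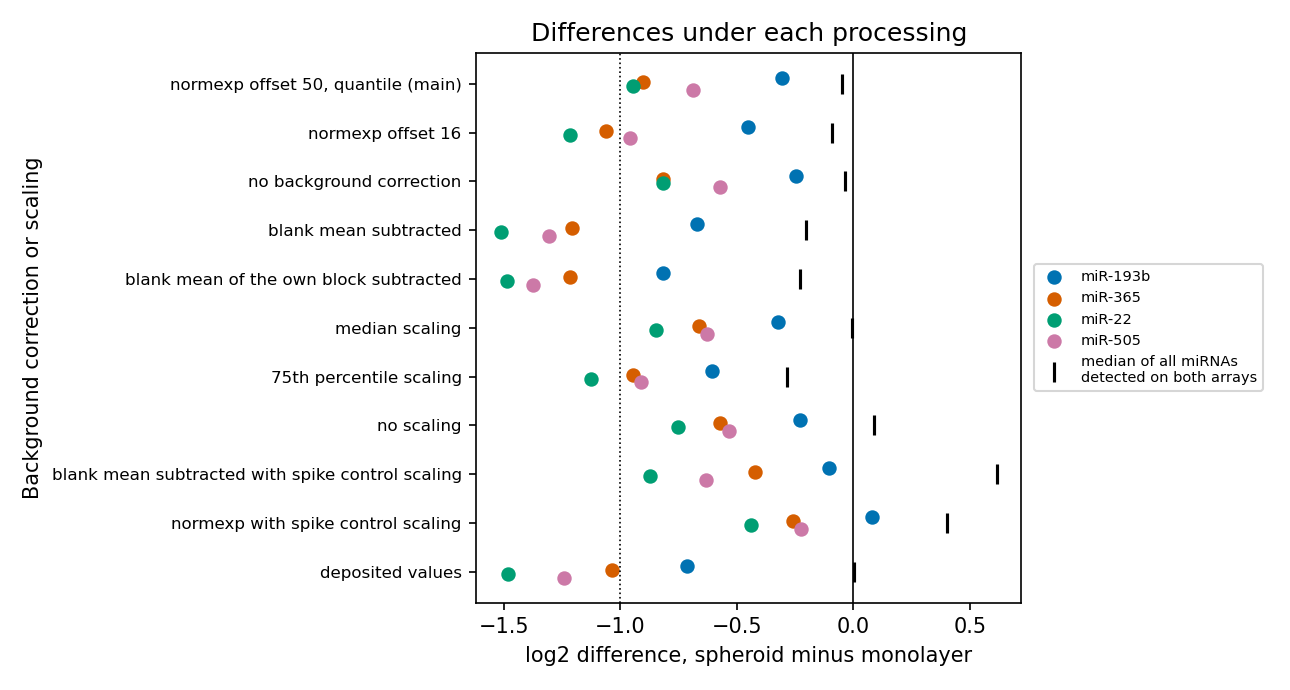
Log2 difference, spheroid minus monolayer (x axis), of miR-193b, miR-365, miR-22 and miR-505 under each of 11 background corrections or scalings (rows), with the median of the 178 miRNAs as a black bar; the dotted line marks a 2-fold lower level and points of a row are spread vertically for legibility. Every point lies below 0, down to -1.51 for miR-22 with the blank mean subtracted, except miR-193b at 0.08 with the normexp values scaled to the spike controls.

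The miRNAs whose levels were most like those of each member were taken as the 3 nearest in the plane of the 2 normalized log2 levels, over the 2 arrays. With 2 arrays, such likeness is of brightness and difference only. miR-155, induced in activated immune cells, was nearest to miR-505, at a distance of 0.02, with a log2 difference of -0.66. miR-874 and miR-302c followed, at 0.13 and 0.33. Nearest to miR-193b were miR-1844 (0.08), miR-140 (0.13), known from cartilage, and miR-92b (0.21), with log2 differences of -0.29, -0.37 and -0.35. miR-365 had no neighbour as close: miR-718 lay at 0.23, miR-18b at 0.36 and miR-487b at 0.43, and their log2 differences were -0.76, -0.45 and -1.35. miR-22 was closest to miR-615 (0.22), miR-302c (0.43) and miR-199 (0.45), which differed by -0.64, -1.15 and -0.31. With the normexp values scaled to the spike controls, miR-1844 (0.13), miR-140 (0.04), miR-92b (0.07), miR-18b (0.31) and miR-199 (0.16) were above 0.

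Since miR-22 and miR-193b repress the oestrogen receptor mRNA in human cells, they were set beside the other miRNAs known for it there. All 9 of that list were detected on both arrays and all 9 were below 0 in the main values, with a median log2 difference of -0.45 against -0.05 over the 178 miRNAs, of which 54.5% were below 0. Leaving out miR-22 and miR-193b, 7 of 7 were lower with a median of -0.45. The list was chosen with earlier results of these data known, so these counts are given as a description. It shares miR-18a, miR-221 and miR-222 with the growth-promoting list and miR-206 with the striated muscle markers. The miRNAs of the list are not independent observations, and miR-206 was dim, with deposited values of 7.57 and 1.78. miR-302c, a miRNA of pluripotent cells, had the largest difference at -1.15 and was the only one 2-fold or more lower. The probes of miR-302a, miR-302b and miR-302d were not detected on both arrays. Whether the miR-302c probe read miR-302c alone was not tested. Next in size were miR-22 and then miR-221 (-0.87), a repressor of the cell cycle inhibitor p27. In the deposited values 8 of the 9 were lower and miR-20b was at 0.05. Without miR-22 and miR-193b, 6 of 7 were lower in those values, with a median of -0.31, against 88 of the 178. The direction depended on the scaling: with the normexp values scaled to the spike controls, 3 of the 9 were lower and the list median was 0.08. Oestrogen receptor mRNA was not measured.

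The wider list of growth-restraining miRNAs of carcinoma, which holds all 4 members, had no common direction. Of its 20 miRNAs, 17 were detected on both arrays, 7 higher and 10 lower, with a median of -0.07. Over the 178, 54.5% were lower in the main values, with a median of -0.05. In the deposited values 90 of the 178 were higher and 88 lower, with a median of 0.0046. Without miR-193b, miR-365, miR-22 and miR-505, 7 were higher and 6 lower, with a median of 0.10, and in the deposited values 9 were higher and 4 lower, with a median of 0.49. miR-205, a miRNA of basal epithelium, was at -1.90, whereas miR-26b (1.44) and miR-26a (1.30), which repress EZH2, were higher. miR-16 and miR-15a, repressors of cyclin mRNAs, were higher by 0.45 and 0.46. The growth-promoting list had 10 of 14 lower and 3 higher, and a median of -0.32, against 54.5% lower over the 178. The 0 of miR-21 follows from quantile normalization, as it was the brightest on both arrays. Its deposited log2 difference was -0.27. In the deposited values 11 of the 14 were lower, against 88 of the 178. miR-221 (-0.87), miR-155 (-0.66) and miR-19a (-0.61) led the list in the main values. The medians of the growth-restraining and growth-promoting lists changed sign with the scaling, to 0.46 and 0.39 with the normexp values scaled to the spike controls. In the main values miR-365, miR-22 and miR-505 lay below the medians of both lists, and miR-193b lay below the first and close to the second. The 4 were chosen by their lower intensity in the spheroid array, so this placing follows from the choice.

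**Figure D4:**
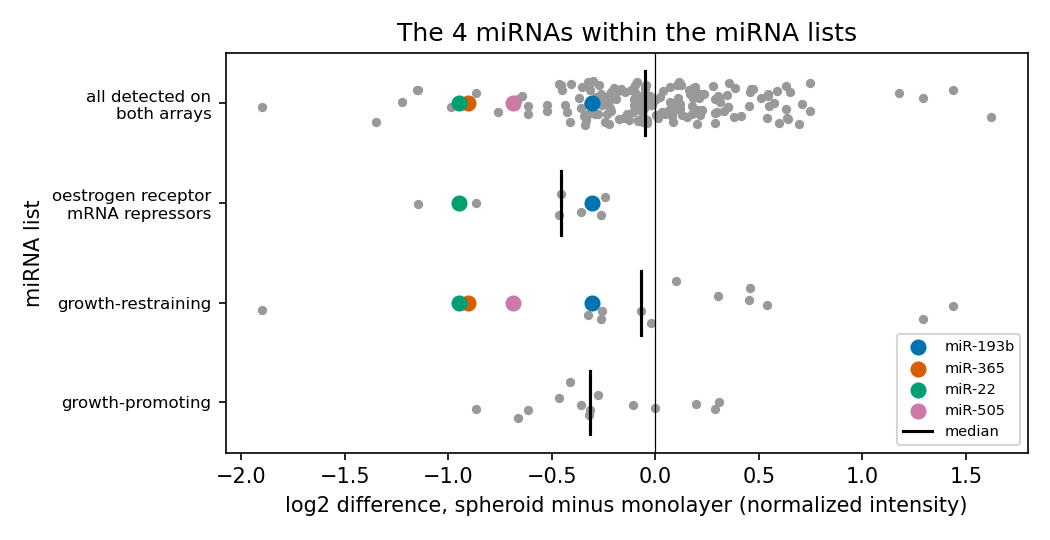
Log2 difference, spheroid minus monolayer (x axis, normalized intensity), of the miRNAs detected on both arrays: all 178, and the oestrogen receptor mRNA repressors, growth-restraining and growth-promoting lists (rows), with medians as bars and miR-193b, miR-365, miR-22 and miR-505 in colour. The medians are -0.05, -0.45, -0.07 and -0.32; the growth-restraining list runs from miR-205 (-1.90) to miR-26b (1.44).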

How the data were processed

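Per the labels' protocols, RNA was extracted with a Qiagen kit and labelled with a Toray 3D-Gene kit. Per the file headers, the deposited scanner tables give each of 3200 spots its median pixel intensity, neither background corrected nor normalized. No spot carried a warning mark. The scanner model is not given in the sources used here. In the authors' deposited value table the intensities are normalized and on a linear scale; set against the scanner values, they equal intensity minus the blank mean, times 0.611 (monolayer) or 0.498 (spheroids), within 0.0257%. The factors put the median of the miRNAs detected on both arrays at 25.0 on each.

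Main values used limma 3.58.1 (R 4.3.3): normexp with an offset of 50 over all spots, log2, and quantile normalization over the 291 miRNAs. The offset draws dim probes' differences towards 0. Blank statistics left out the highest and lowest 5% of blanks. With 1 array per culture no p-value was computed. The control-spot SD had 42 degrees of freedom and was taken over spots paired by position between the arrays, before scaling. For deposited differences, the within-array SD of raw log2 control intensities (0.097 and 0.086) was scaled by raw over blank-subtracted intensity. The latter does not use the pairing of spots, so the errors of main and deposited differences are not of the same kind. The processing was tested on simulated data with known changes, in which both arrays shared a common blank level and overall brightness. The measured arrays differed in both, so the simulation does not check the differences given here. Python 3.11.15, numpy 2.4.6, pandas 2.3.3 and matplotlib 3.10.9 were also used.

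Members and lists were chosen with earlier results of these data known. Named miRNAs were the members, miR-193a, the 3 nearest in level to each member, and the 3 of each list with the largest differences. The cell type markers were named besides. After their values were seen, miR-16, miR-15a, miR-20b, miR-21, miR-18a, miR-222, miR-302a, miR-302b and miR-302d were named too. Gene neighbours come from the RefSeq table of UU_Cfam_GSD_1.0, whose positions are not printed and which gives no strand. Mature sequences were not used here, so miRNAs were not grouped by shared seed.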

Additional observations from a re-analysis of the deposited data

How the results depend on the processing

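Values are given in the order miR-193b, miR-365, miR-22, miR-505 and the median of these 4 as log2 differences. They were -0.45, -1.06, -1.22, -0.96 and -1.01 with an offset of 16; -0.25, -0.82, -0.82, -0.57 and -0.70 without background correction; -0.67, -1.21, -1.51, -1.31 and -1.26 with the blank mean subtracted; and -0.82, -1.22, -1.49, -1.37 and -1.30 with the blank mean of the spot's own block, a setting chosen after seeing the data. Median scaling gave -0.33, -0.66, -0.85, -0.63 and -0.65, the 75th percentile -0.60, -0.94, -1.13, -0.91 and -0.93, no scaling -0.23, -0.57, -0.75, -0.54 and -0.55, and spike controls on the normexp values 0.082, -0.26, -0.44, -0.22 and -0.24, a setting added after seeing the data. With the spike controls and the blank mean subtracted, which are changes of both scaling and background, they were -0.10, -0.42, -0.87, -0.63 and -0.53, and in the deposited values -0.71, -1.03, -1.48, -1.24 and -1.14. A detection limit of the blank mean plus 5 SD changed none of these.

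The number of the 4 that were 2-fold or more lower was 0 in the main values, 2 with the offset of 16 and 1 with the 75th percentile. It was 3 with either blank mean and in the deposited values. It was 0 without background correction, with median scaling, without scaling and with either spike control scaling. Over all detected miRNAs, 4 were 2-fold higher and 5 lower in the main values, against 6 and 8 with the offset of 16, 17 and 34 with the blank mean, 21 and 34 with the block's blank mean, 9 and 3 with median scaling, 13 and 2 without scaling, 28 and 1 with spike controls on the normexp values, 69 and 6 with spike controls and the blank mean subtracted, and 23 and 25 in the deposited values.

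In the same order of settings (offset of 16, blank mean, block's blank mean, median, 75th percentile, no scaling, spike controls on normexp values, spike controls with the blank mean subtracted, deposited), the oestrogen receptor list median was -0.52, -0.67, -0.82, -0.33, -0.60, -0.23, 0.082, -0.028 and -0.64, and miR-193a was at -0.46, -0.98, -1.02, -0.26, -0.54, -0.17, 0.14, -0.14 and -0.75. The growth-restraining median was -0.14, -0.34, -0.28, 0.050, -0.23, 0.14, 0.46, 0.62 and 0.0080. The growth-promoting median was -0.36, -0.39, -0.33, -0.016, -0.30, 0.078, 0.39, 0.44 and -0.17. The median of all detected miRNAs was -0.20 with the blank mean, -0.23 with the block's, -0.28 with the 75th percentile, 0.090 without scaling, and 0.40 and 0.61 with the spike controls on normexp and on blank-subtracted values. The cause of these shifts was not tested. No paired analysis was possible because each culture had 1 array.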
